A study of Mus musculus with 2 samples.

Results

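The clustered protocadherin genes were taken as every protein-coding row whose gene name is *Pcdha*, *Pcdhac*, *Pcdhb*, *Pcdhga*, *Pcdhgb* or *Pcdhgc* followed by a number. This gave 56 gene names of 21992 protein-coding gene names, and 87 transcripts of 128603. They were measured by RNA-Seq in brains of C57BL/6 mice at postnatal day 0, in wild-type (m+/p+) mice and in *Mir125b-2* maternal knockout (m-/p+) mice, whose mothers were heterozygous and which keep the paternal copy of the microRNA gene. For each genotype the RNA of 6 brains was pooled in equal amounts and sequenced as 1 library. There is therefore no error between replicates, no test between genotypes can be run, and every difference given here is a difference between these 2 libraries. The labels give whole brain as the tissue and hippocampus in the extraction protocol. The values are FPKM (fragments mapped to a transcript, scaled to its length and to the size of the library), which the authors estimated for each Ensembl transcript. The FPKM of the transcripts of a gene were summed to give the level of the gene.

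Clustered protocadherins are cadherin-family adhesion proteins of neurons. Each neuron expresses its own combination of them, chosen by promoters that are switched on individually, and the isoforms on the cell surface bind only to identical isoforms on another membrane. In mice this lets a neuron tell its own branches from those of its neighbours, which shapes dendrite self-avoidance, axon spacing, synapse formation and the survival of some neurons. In the alpha and gamma clusters a large variable exon, which encodes the extracellular and transmembrane parts, is spliced to constant exons shared by the whole cluster, which encode a common cytoplasmic tail. Genes of the beta cluster are each encoded by a single exon and have no shared tail. The C-type genes at the end of the alpha and gamma clusters differ from the others in that most are expressed in many neurons without a random choice.

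The microRNA removed from the maternal chromosome is shown because its seed, the stretch that pairs with target transcripts, was searched for in the members. The mature strand of *Mir125b-2* is encoded on chromosome 16 from base 77646279 to base 77646300 on the plus strand, and is given 5′ to 3′ from RefSeq (GRCm38.p6) with its seed, bases 2 to 8, in capitals.
mmu-miR-125b-5p: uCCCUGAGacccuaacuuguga
A match to this seed reads CTCAGGG on the sense strand of a 3′UTR. It was absent from the longest 3′UTR of all 13 genes of the alpha cluster, which share a 3′UTR of 2401 bases, and of all 21 genes of the gamma cluster, whose shared 3′UTR has a median length of 1744 bases. Of the 22 beta genes, whose 3′UTRs are their own, only *Pcdhb22* held a match, a single one in 3614 bases. Among all protein-coding genes 15.03% held a match, and among those with 3′UTRs of 1000 to 3000 bases the share was 19.7%. The longest 3′UTRs of the beta genes ran from 71 to 6117 bases, so neither share is matched to them in length. The members of the alpha and of the gamma cluster count as 1 sequence each in this comparison, and a match is a description of the letters and not a site. *Pcdhb22* had 4.93 FPKM in wild type and 4.63 FPKM in the knockout, a log2 ratio of -0.09, within the range of the other beta genes. This sum joins 2 transcripts. The one with the match had 3.90 FPKM in wild type and 3.79 FPKM in the knockout. The other, whose 3′UTR of 280 bases held no match, had 1.03 and 0.837 FPKM.

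All 56 genes lie on the plus strand of chromosome 18 (GRCm38). The alpha cluster, with 13 genes and 24 transcripts, spans bases 36930184 to 37187661. The beta cluster, with 22 genes and 26 transcripts, spans bases 37264938 to 37524479, and the gamma cluster, with 21 genes and 37 transcripts, bases 37661793 to 37841873. The 3 constant exons of the alpha cluster begin at bases 37156155, 37159265 and 37184946, and the 3 of the gamma cluster at bases 37825021, 37833265 and 37839903. By family there are 11 alpha, 22 beta, 12 gamma-A and 6 gamma-B genes, and 5 C-type genes (*Pcdhac1*, *Pcdhac2*, *Pcdhgc3*, *Pcdhgc4* and *Pcdhgc5*). The transcripts of an alpha or gamma cluster share their constant exons, and neighbouring beta genes are close paralogs, so the split of shared reads among members is an estimate and single values are uncertain to that extent.

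Nearly the whole repertoire was listed in the newborn brain. In each library 75 of the 87 transcripts were above 0.3 FPKM, 8 transcripts stood at the floor of the table (1e-05 FPKM, which stands for 0) in both libraries, and 3 stood there in 1 library. All genes but *Pcdhb1* had a mean of at least 1 FPKM. The members summed to 315 FPKM in wild type and 313 FPKM in the knockout, which is 0.0951% and 0.0934% of the FPKM of all protein-coding transcripts. As bulk RNA was measured, fewer cells of a type and less RNA per cell cannot be told apart, and a level near the median of the cluster does not say how many neurons chose that gene.

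The C-type genes held the 3 highest levels of all members, while the others lay below the median. *Pcdhgc4*, which is required in mice for the survival of cortical interneurons and for life after birth, had 30.1 FPKM in wild type and 28.8 FPKM in the knockout. *Pcdhgc3*, whose protein shapes the dendrites of cortical neurons through the scaffold protein Axin1, had 28.8 FPKM in wild type and 28.9 FPKM in the knockout. These 2 genes stood far above all others, with 18.7% of the summed level of all members in wild type and 18.4% in the knockout. *Pcdhac2*, which spaces the axons of serotonergic neurons in mice, followed with 13.7 FPKM in wild type and 13.3 FPKM in the knockout. The other C-type genes lay below the median of the members, *Pcdhac1* with 3.14 FPKM in wild type and 2.87 FPKM in the knockout and *Pcdhgc5* with 3.51 and 3.18 FPKM. The C-type genes thus differed widely among themselves, and together they made up 25.1% of the level in wild type and 24.6% in the knockout. All 5 C-type log2 ratios lay between -0.14 and 0.00.

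Without *Pcdhgc3*, *Pcdhgc4* and *Pcdhac2*, the remaining 53 genes lay between 0.116 and 9.92 FPKM in wild type and between 0.144 and 10.6 FPKM in the knockout, with medians of 4.60 and 4.67 FPKM. The upper end in the knockout is the sum for *Pcdha11*, whose rows carry 2 Ensembl gene identifiers, and with these apart it was 9.05 FPKM, for *Pcdhgb6*. The mean of *Pcdhgc3* and *Pcdhgc4* was 6.41 times this median in wild type and 6.18 times in the knockout.

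Within each family the level was spread over most of the genes. The evenness of a family was expressed as its effective number of genes, the number of equally expressed genes that would give the same Shannon entropy. For the gene sums it was 10.1 of 11 for the alpha genes in wild type and 9.96 in the knockout, with the rows named *Pcdha11* counted as 1 gene. It was 11.5 and 11.7 of 12 for gamma-A, and 5.68 and 5.73 of 6 for gamma-B. By these sums the beta genes were less even, with 18.7 of 22 in wild type and 18.8 in the knockout, and the C-type genes were the least even with 3.69 and 3.64 of 5. By gene sums, beta genes were also lower than the other families outside the C-type genes, with a median of 3.13 FPKM in both libraries, against 5.83 FPKM in wild type for alpha, 5.58 FPKM for gamma-A and 4.72 FPKM for gamma-B. The gamma-B sums include transcripts without the constant exons. With all constant exons alone, *Pcdhgb1*, *Pcdhgb2*, *Pcdhgb4* and *Pcdhgb5* had 1.06, 1.64, 2.11 and 2.29 FPKM in wild type. The evenness of gamma-B and its order against beta therefore depend on the transcripts counted.

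**Figure D1:**
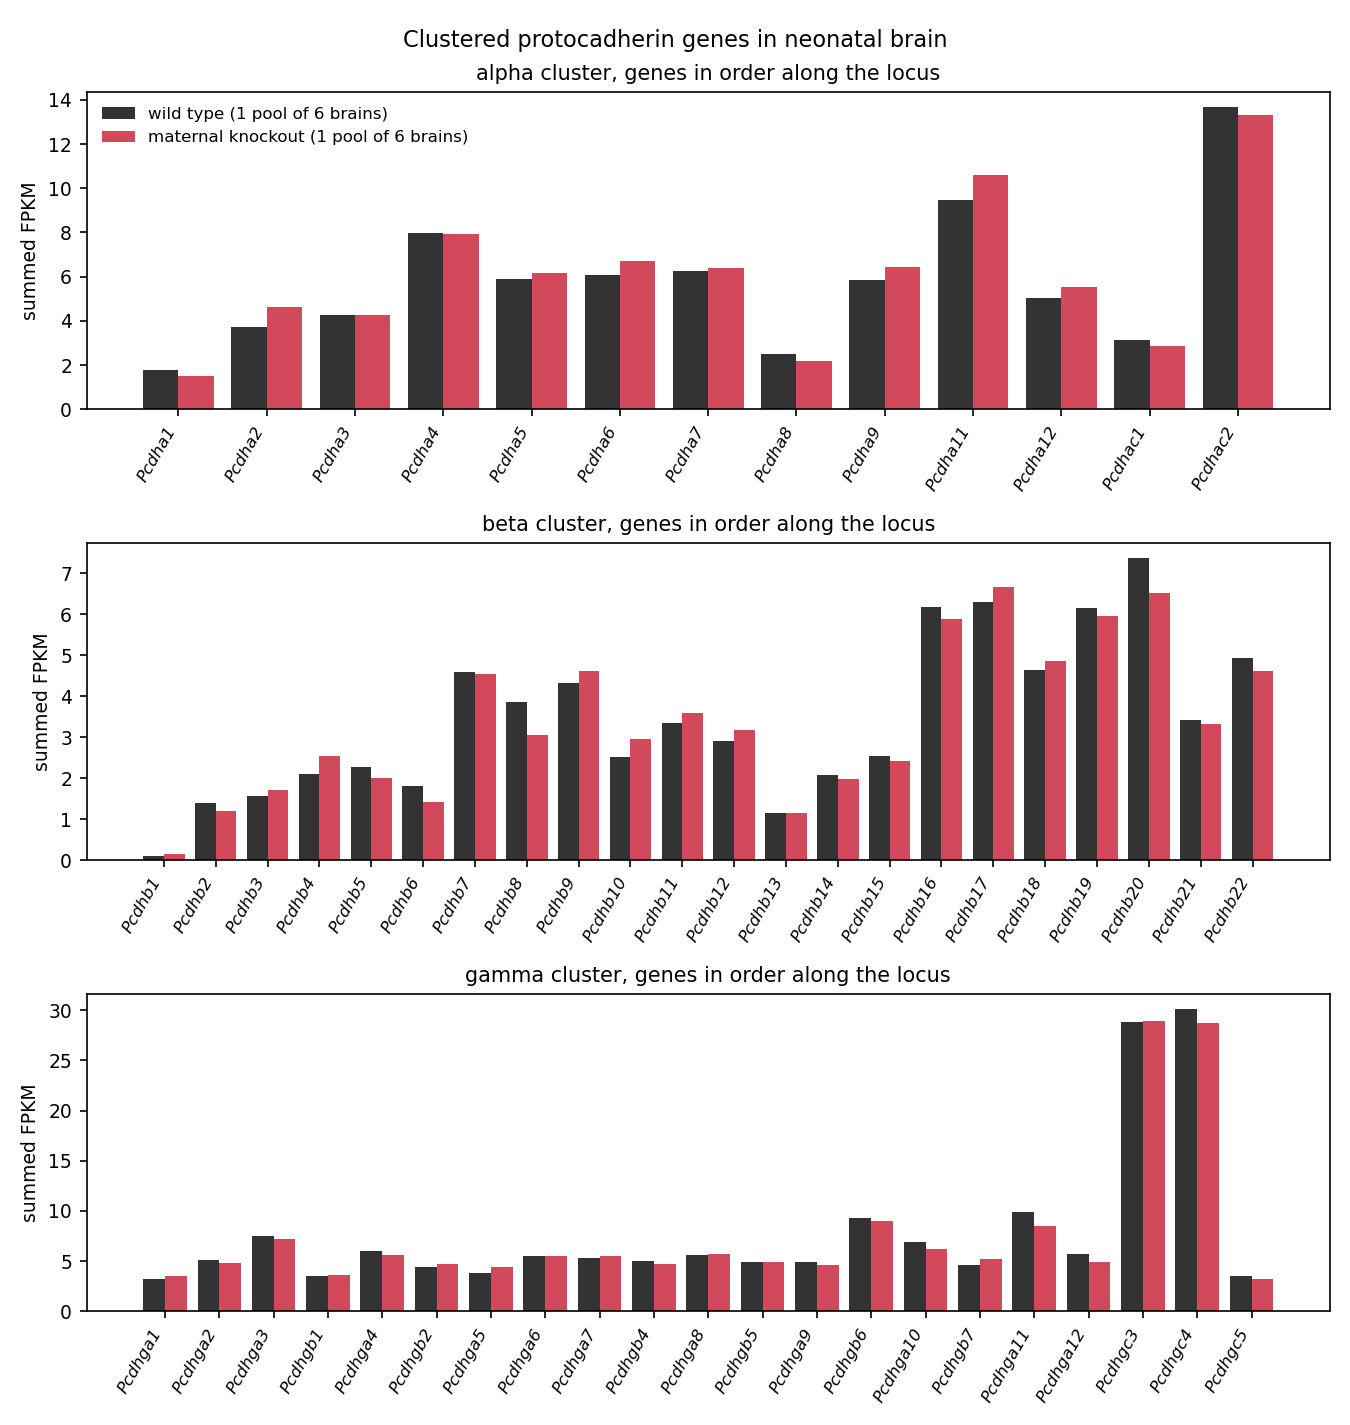
Summed FPKM of each of the 56 genes in the wild-type library (dark bars) and the maternal knockout library (red bars), with 1 panel per cluster and genes in their order along chromosome 18. *Pcdhgc4* and *Pcdhgc3* stand near 29 FPKM in both libraries, beta genes at positions 16 to 20 stand above those at positions 1 to 15, and the paired bars of a gene differ little.

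Among the alpha genes, which encode receptors with a tail that binds Fyn and the WAVE actin regulators, rows named *Pcdha11* had the highest summed level, 9.46 FPKM in wild type and 10.6 FPKM in the knockout, but only because they join 2 Ensembl gene identifiers. The transcript ENSMUST00000115658, which starts at base 37005203 where RefSeq places *Pcdha10*, had 3.61 FPKM in wild type and 4.11 FPKM in the knockout, and no row is named *Pcdha10*. The other identifier had 5.86 FPKM in wild type and 6.49 FPKM in the knockout. Taken by identifier, the highest alpha gene outside the C-type was *Pcdha4*, with 7.99 and 7.94 FPKM. The lowest alpha gene was the first of the cluster, *Pcdha1*, with 1.76 FPKM in wild type and 1.498 FPKM in the knockout. Neighbouring genes in the order of alpha levels, such as *Pcdha9* with 5.83 FPKM in wild type and *Pcdha5* with 5.90 FPKM, differed by less than either of them differed between libraries.

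The levels of beta genes differed along their cluster. The first gene, *Pcdhb1*, was the lowest of all members, with 0.116 FPKM in wild type and 0.144 FPKM in the knockout. Genes at positions 1 to 15 ran from there to 4.60 FPKM in wild type, with a median of 2.27 FPKM, and to 4.61 FPKM in the knockout, with a median of 2.42 FPKM. All 5 genes at positions 16 to 20, *Pcdhb16* to *Pcdhb20*, lay above these in both libraries, between 4.65 and 7.37 FPKM in wild type and between 4.87 and 6.68 FPKM in the knockout. *Pcdhb20* was the highest beta gene in wild type with 7.37 FPKM and had 6.53 FPKM in the knockout, where *Pcdhb17* was higher with 6.68 FPKM. The last genes, *Pcdhb21* and *Pcdhb22*, had 3.42 and 4.93 FPKM in wild type, so that *Pcdhb21* lay below all genes of that block and *Pcdhb22* within its range. In the knockout they had 3.33 and 4.63 FPKM, and both lay below the block. Over the 22 genes, level and position in the cluster had a Spearman's rho of 0.72 and a Pearson's r of 0.70 in wild type, and 0.70 and 0.69 in the knockout. The genes share their library and paralogous sequence, their level also had a rho of 0.41 with transcript length in wild type and 0.45 in the knockout, and the blocks of positions were drawn after the levels were seen, so these values describe the cluster only. Without the C-type genes, rho with position was 0.40 in wild type over 11 alpha genes and 0.42 over 18 gamma genes. The alpha value counts the rows named *Pcdha11* as 1 gene with 9.46 FPKM in wild type. Their 2 identifiers had 3.61 and 5.86 FPKM, so the alpha value depends on that merge and no trend is read from it.

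Among gamma genes, whose shared tail binds and inhibits focal adhesion kinase, *Pcdhga11* was the highest gamma-A gene with 9.92 FPKM in wild type and 8.55 FPKM in the knockout. The highest gamma-B gene was *Pcdhgb6*, with 9.34 FPKM in wild type and 9.05 FPKM in the knockout. By gene sums the first gene of each kind was the lowest, *Pcdhga1* with 3.24 FPKM in wild type and 3.49 FPKM in the knockout and *Pcdhgb1* with 3.56 and 3.61 FPKM. The range of the gamma genes outside the C-type was therefore narrower than that of the beta genes, none being near 0.

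The order of the genes was nearly the same in maternal knockout and wild-type brain. Levels in the libraries had a Spearman's rho of 0.98 over the 56 genes and of 0.98 over the 51 genes without the C-type. Of the 56 genes 13 had the same rank in both libraries, the median shift was 2 ranks, and the largest was 8 ranks, for *Pcdhgb7*. Most neighbours in this order cannot be separated, since a gene commonly moved past its neighbours between libraries.

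No clustered protocadherin gene stood out between the genotypes. For this comparison 0.1 FPKM was added to both sums before the log2 ratio of knockout to wild type was taken, which understates the change of low genes, and genes were called higher or lower when the ratio of the sums passed 1.2-fold at a mean of at least 1 FPKM. Of 55 members at that level, 1 (*Pcdha2*) was higher and 2 (*Pcdhb6* and *Pcdhb8*) were lower, which is 1.82% and 3.64% of them, against 6.32% higher and 7.85% lower among all 12863 protein-coding genes at that level. The median log2 ratio was -0.01 over the members and 0.00 over all genes, and 25 members were above a ratio of 1 and 30 below it, while 50.4% of all genes were above. The median size of the log2 ratio, whatever its sign, was 0.09 for members and 0.09 for all genes. It was 0.11 for the 32 members with a mean of 1 to 5 FPKM against 0.17 for all genes in that range, and 0.07 for the 21 members at 5 to 20 FPKM against 0.09. The shares of all genes beyond 1.2-fold also depended on level. At 1 to 5 FPKM, where the members called stood, 13.7% were higher and 19.8% lower. The shares were 5.05% and 5.38% at 5 to 20 FPKM, and 1.69% and 0.934% at 20 FPKM and over.

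The clusters differed little in direction. The median log2 ratio was 0.04 for the alpha cluster, with 7 genes above a ratio of 1 and 6 below it. It was -0.04 for the beta cluster, with 9 above and 12 below, and -0.05 for the gamma cluster, with 9 above and 12 below. The summed level of the 11 alpha genes was 58.8 FPKM in wild type and 62.3 FPKM in the knockout, that of the beta genes 75.7 and 74.4 FPKM, that of gamma-A 69.6 and 66.5 FPKM and that of gamma-B 31.7 and 32.3 FPKM. The largest difference in share was that of the alpha genes, with 18.7% of the members' level in wild type and 19.9% in the knockout.

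The members with the highest ratios came from every cluster. *Pcdha2* had 3.73 FPKM in wild type and 4.64 FPKM in the knockout, a log2 ratio of 0.31. It was followed by *Pcdhb4* with 2.11 and 2.53 FPKM (log2 ratio 0.25), *Pcdhb10* with 2.52 and 2.97 FPKM (0.23), *Pcdhgb7* with 4.57 and 5.22 FPKM (0.19) and *Pcdhga5* with 3.86 and 4.40 FPKM (0.18). All are receptors of the ordinary, chosen kind and none is C-type, but only 5 of the 55 members compared are C-type. For *Pcdha2* the higher level lay in the transcript with a split last constant exon, which had 3.12 FPKM in wild type and 4.26 FPKM in the knockout, while its other transcript had 0.611 and 0.375 FPKM.

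The members with the lowest ratios were mostly low in level. *Pcdhb6* had 1.81 FPKM in wild type and 1.41 FPKM in the knockout, a log2 ratio of -0.33, and *Pcdhb8* had 3.86 and 3.07 FPKM, a log2 ratio of -0.32. Both sums include a short spliced transcript: that of *Pcdhb6*, of 681 bases, had 0.238 FPKM in wild type and stood at the floor in the knockout, and that of *Pcdhb8*, of 462 bases, had 1.49 and 0.960 FPKM. The single-exon transcripts, which carry the usual beta structure, had 1.57 and 1.41 FPKM for *Pcdhb6* and 2.37 and 2.11 FPKM for *Pcdhb8*, and neither passed 1.2-fold alone. Next came *Pcdhb2* with 1.41 and 1.19 FPKM, *Pcdhga12* with 5.70 and 4.88 FPKM and *Pcdha1* with 1.76 and 1.498 FPKM, each with a log2 ratio of -0.22. A short 511-base transcript of *Pcdhb2* stood at the floor in wild type and had 0.197 FPKM in the knockout, and without it the log2 ratio was -0.46. For *Pcdhga12* the transcript without constant exons had 1.98 FPKM in wild type and 1.35 FPKM in the knockout. The transcript with all of them had 3.71 and 3.53 FPKM, a log2 ratio of -0.07.

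**Figure D2:**
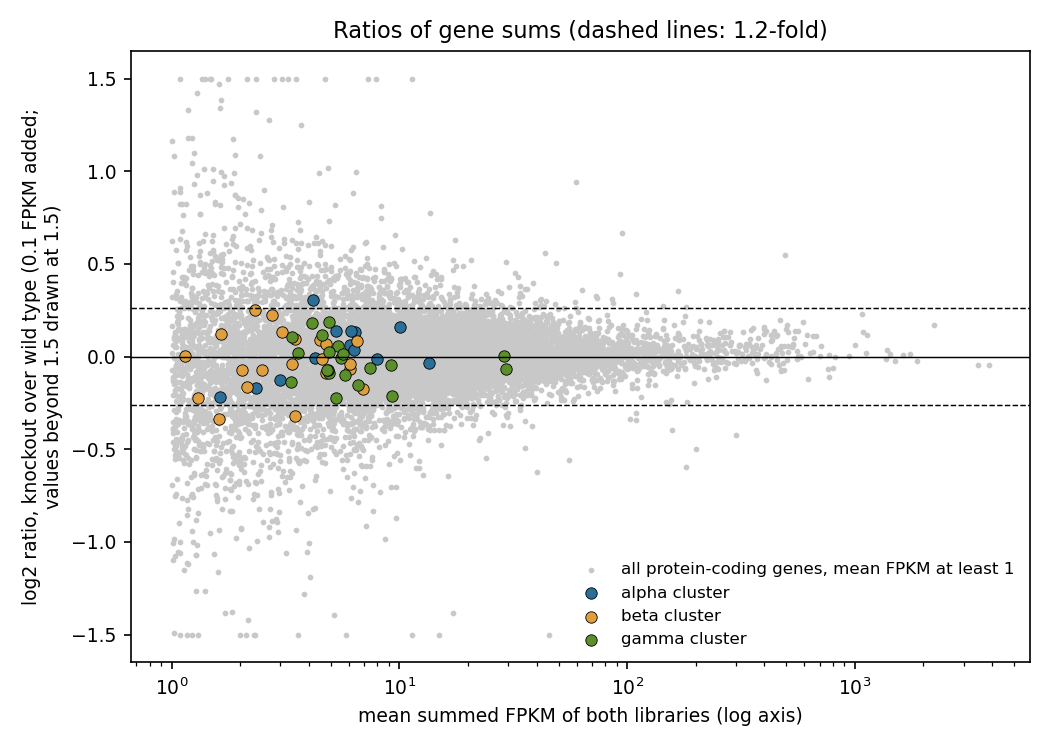
Log2 ratio of summed FPKM, knockout over wild type, against the mean level on a log axis, for all protein-coding genes with a mean of at least 1 FPKM (grey) and for the members of the alpha, beta and gamma clusters (coloured). All but 3 of the 55 members lie between the dashed lines at 1.2-fold.

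Single transcripts were called increased if they had over 0.3 FPKM in wild type and more than 2 times that value in the knockout, and decreased if the ratio was below 0.5. None of the 75 member transcripts was increased and none was decreased, against 4.16% increased and 13.6% decreased among all 50321 transcripts above 0.3 FPKM in wild type. These shares depended on level. Among the 21534 transcripts at 1 to 5 FPKM, which held 52 of the members, 2.28% were increased and 10.2% were decreased, and among those at 5 to 20 FPKM, which held 19, the shares were 0.227% and 1.84%. Member ratios ran from 0.503 to 1.65 with a median of 0.971. The lowest, just inside the limit, was a transcript of *Pcdhga4* without all the constant exons, with 0.858 FPKM in wild type and 0.432 FPKM in the knockout.

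Transcripts with and without the shared tail were then compared, since a gene sum hides them. In the alpha cluster 21 transcripts contain all constant exons, and these had 66.6 FPKM in wild type and 67.7 FPKM in the knockout, or 88.2% and 86.3% of the level of the cluster. In the gamma cluster the 25 such transcripts had 131 FPKM in wild type and 126 FPKM in the knockout, or 79.9% and 78.9%. Transcripts with none of the constant exons, such as a variable exon that reads on into its intron, made up 9.56% and 10.4% of the alpha cluster and 19.4% and 20.4% of the gamma cluster. In the beta cluster the 22 single-exon transcripts held 96.4% of the level in wild type and 97.3% in the knockout.

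The last alpha constant exon is annotated whole in 14 transcripts and split by a further splice in 6, which changes the end of the shared tail. The whole form summed to 54.5 FPKM in wild type and 54.3 FPKM in the knockout, and the split form to 12.2 and 13.5 FPKM. *Pcdha6* had 2.41 FPKM in wild type and 1.76 FPKM in the knockout for the whole form, but 3.68 and 4.92 FPKM for the split form. Its sum, 6.09 FPKM in wild type and 6.69 FPKM in the knockout, differed less than either form. The split form was also higher in the knockout for *Pcdha2*, with 3.12 FPKM in wild type and 4.26 FPKM in the knockout. It was lower for *Pcdha4*, with 3.60 and 2.80 FPKM, and for *Pcdha1*, with 1.76 and 1.498 FPKM, so the genes did not share a direction.

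Taken by Ensembl gene identifier, which leaves out *Pcdha11* because its forms above 0.3 FPKM belong to different identifiers, in 13 alpha and gamma genes both a form with all constant exons and another form were above 0.3 FPKM in wild type, and in 10 of them the ratios of the forms lay on opposite sides of 1. Differences of any size were counted: the form with the tail had a ratio of 1.003 in *Pcdhga4* and 1.02 in *Pcdhgc3*. Such forms are not defined for other genes, so no share stands beside this count. *Pcdhga7* had 2.85 FPKM in wild type and 1.49 FPKM in the knockout for its form with the tail, a ratio of 0.522, and 2.43 and 4.01 FPKM for its single-exon form, a ratio of 1.65. Its sum was nevertheless close in the libraries, with 5.28 FPKM in wild type and 5.49 FPKM in the knockout. *Pcdhgb4* had 2.11 and 1.13 FPKM for the form with the tail and 2.90 and 3.62 FPKM for the other, with a sum of 5.005 and 4.75 FPKM. *Pcdha4* had 4.90 and 3.65 FPKM with the tail and 3.09 and 4.29 FPKM without it, with a sum of 7.99 and 7.94 FPKM. *Pcdhga1* had the reverse, with 1.33 and 2.02 FPKM for the form with the tail and 1.91 and 1.47 FPKM for the other.

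The forms of a gene overlap in the variable exon, over most of it except in *Pcdhga4*, whose other form has only 797 bases. A read there can be given to either form, and their opposite ratios and the way the reads were divided cannot be told apart in these values. The pairs were picked out after the transcript values had been seen. Where the forms had the same direction, in *Pcdhga12*, *Pcdhgc4* and *Pcdhgc5*, they were lower in the knockout. In the abundant *Pcdhgc3* the form with the tail had 23.4 FPKM in wild type and 23.9 FPKM in the knockout, and the other 5.46 and 4.995 FPKM. If forms with the tail, or single-exon transcripts for beta genes, were counted alone, 2 genes (*Pcdha2* and *Pcdhga1*) were above 1.2-fold and 5 (*Pcdha4*, *Pcdhb2*, *Pcdhga7*, *Pcdhga9* and *Pcdhgb4*) were below it. Forms of this kind are not defined for other genes, so no share over all genes stands beside these counts, and nothing is read from them.

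**Figure D3:**
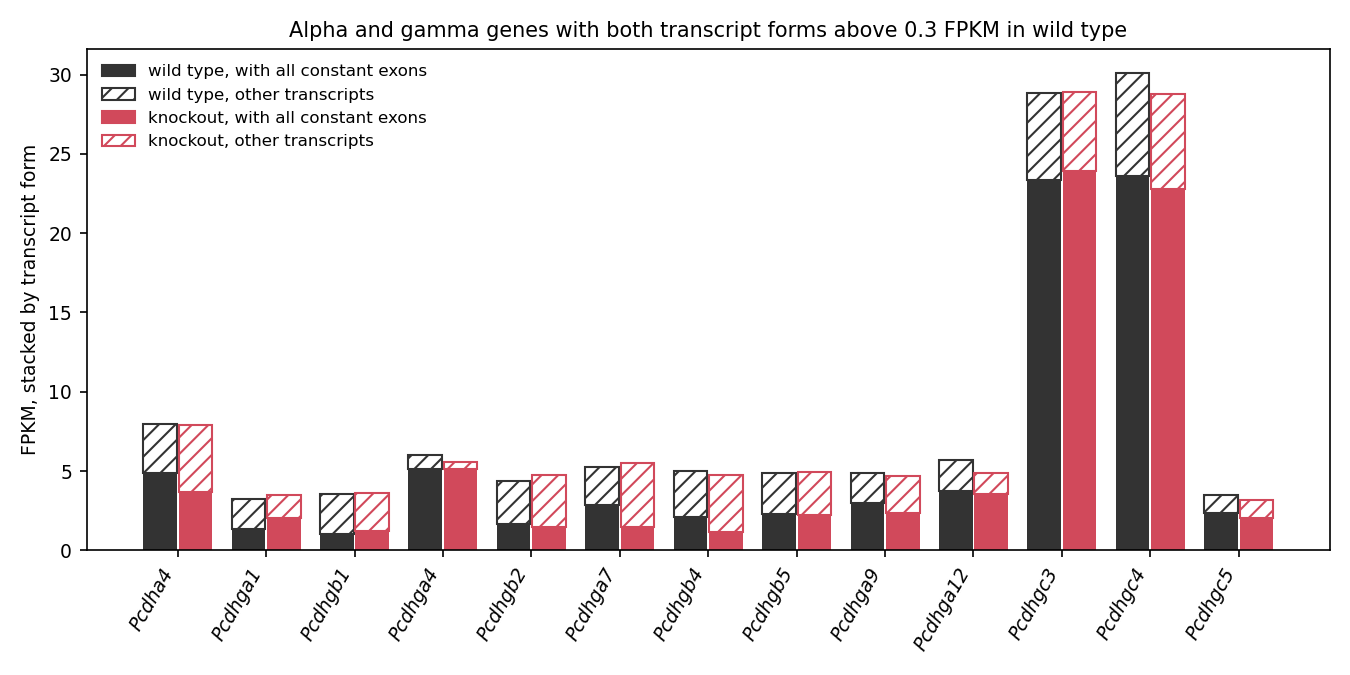
FPKM of the 13 alpha and gamma genes, by Ensembl gene identifier, with both transcript forms above 0.3 FPKM in wild type, stacked as the form with all constant exons (filled) and the other transcripts (hatched), for wild type (dark) and knockout (red). The total heights differ little between libraries, while the filled part is shorter in the knockout for *Pcdhga7*, *Pcdhgb4* and *Pcdha4* and taller for *Pcdhga1*.

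Genes that control the choice of a protocadherin promoter were looked at beside the members. CTCF and cohesin loop a promoter to its enhancer, and DNA methylation and the repressors Smchd1 and Setdb1 keep promoters silent. All 25 genes of this list were above 1 FPKM, with a median log2 ratio of 0.02, 17 above a ratio of 1 and 8 below it. None was above 1.2-fold and 1 was below it, against 6.32% and 7.85% of all protein-coding genes. These shares are over all levels and are smaller at high levels, and the list ran from 1.43 to 89.9 FPKM in wild type. *Ctcf* had 21.9 FPKM in wild type and 22.5 FPKM in the knockout, and *Rad21*, a cohesin subunit, 32.2 and 33.1 FPKM. The lowest ratios were those of *Hells*, a chromatin remodeller needed for DNA methylation, with 4.96 and 3.74 FPKM (log2 ratio -0.40), and of *Tet3*, which oxidises methylated cytosine, with 19.0 and 17.2 FPKM (-0.14). The highest were those of *Dnmt3b*, the methyltransferase that marks these promoters in the mouse embryo, with 1.43 and 1.699 FPKM (0.23), and *Smchd1* with 17.4 and 20.2 FPKM (0.21).

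Partners of the cytoplasmic tails, 26 genes for kinases, actin regulators, proteases and scaffold proteins, had a median log2 ratio of 0.00. Of these, 12 were above a ratio of 1 and 14 below it. None was above 1.2-fold and 1 was below it, against 6.32% and 7.85% of all protein-coding genes. Again these shares are not matched to the levels of the list, which ran from 3.34 to 499 FPKM in wild type. The exception was *Wasf2*, a WAVE subunit, with 5.50 FPKM in wild type and 3.67 FPKM in the knockout (log2 ratio -0.57), followed by *Prkca*, a protein kinase C, with 11.1 and 9.91 FPKM (-0.16). The highest were *Ret*, a receptor kinase that associates with protocadherins, with 4.06 and 4.71 FPKM (0.21), and *Wasf1*, the neuronal WAVE subunit, with 18.3 and 20.2 FPKM (0.14). *Axin1*, the partner of *Pcdhgc3*, had 10.3 and 9.33 FPKM.

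The 10 non-clustered protocadherins of the list are encoded singly outside the clusters and are not chosen at random. All had ratios above 1, against 50.4% of all protein-coding genes, but none passed 1.2-fold and their median log2 ratio was 0.05. *Pcdh12*, which is not on the list and was looked at afterwards, had 1.60 FPKM in both libraries. The highest were *Pcdh19* with 21.9 FPKM in wild type and 25.7 FPKM in the knockout (0.23) and *Pcdh18* with 11.0 and 11.8 FPKM (0.10). The lowest were *Pcdh11x* with 22.2 and 22.3 FPKM (0.01) and *Pcdh7* with 39.7 and 40.3 FPKM (0.02). All but *Pcdh20*, with 4.85 and 4.96 FPKM, were more abundant than any alpha or beta gene outside the C-type.

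**Figure D4:**
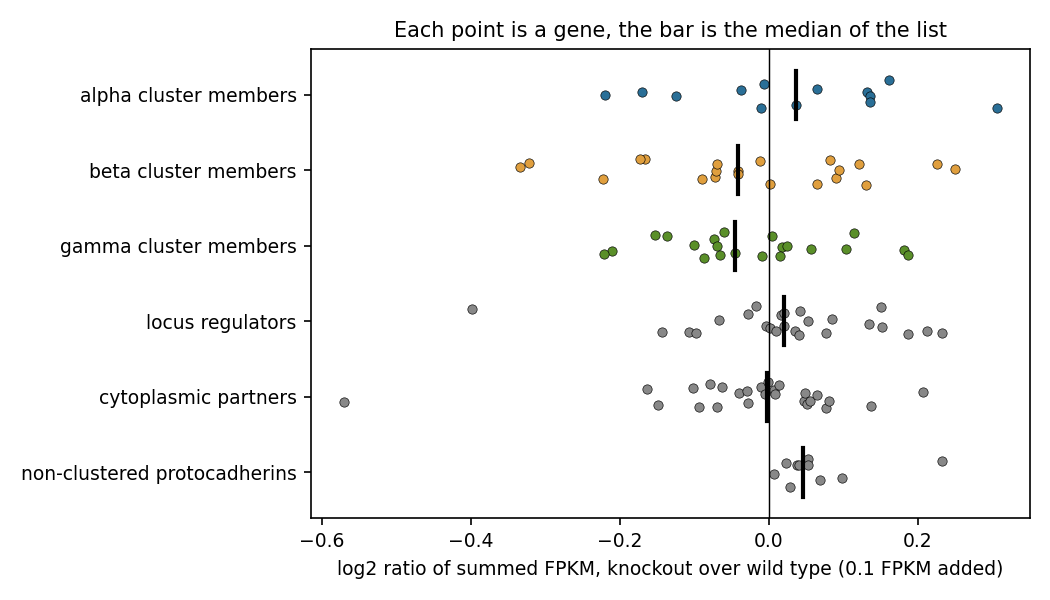
Log2 ratio of summed FPKM, knockout over wild type, for each gene with a mean of at least 1 FPKM in the alpha, beta and gamma clusters and in the lists of locus regulators, cytoplasmic partners and non-clustered protocadherins, with the median of each list as a bar. All medians lie between -0.05 and 0.05, and the points farthest to the left are *Wasf2* and *Hells*.

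The libraries listed similar numbers of transcripts and similar levels of most cell type markers. Over 0.3 FPKM was given to 50321 wild-type and 50108 knockout transcripts. The depth behind each value is unknown, as only FPKM were analysed. The precursor of *Mir125b-2* stood at the floor in both libraries and does not check the genotype labels. Of 51 markers in 11 lists of cell types and regions, 46 had a mean of at least 1 FPKM, with a median log2 ratio of -0.02. Of these, 1 was above 1.2-fold and none was below it, against 6.32% and 7.85% of all protein-coding genes, shares that are not matched to the levels of the markers. The sum of 6 neuron markers was 1781 FPKM in wild type and 1787 FPKM in the knockout, while 5 interneuron markers summed to 267 and 239 FPKM, 4 of them being lower. Most of that sum was *Sst*, with 169 and 143 FPKM, and *Dlx1* was higher, with 21.1 and 23.6 FPKM. All 6 markers of radial glia and astrocytes were also lower, summing to 763 and 749 FPKM, with log2 ratios between -0.15 and -0.01. Among all protein-coding genes 50.4% were above a ratio of 1. Of markers with a mean of at least 1 FPKM, 3 of 4 were lower for choroid plexus, for hippocampus and for meninges and vessels. For neurons 4 of 6 were higher. *Pcdhgc4* was among the 30 of 55 members below a ratio of 1. Of the serotonergic markers *Slc6a4*, *Ddc* and *Tph2* were above 1 FPKM and all higher in the knockout, while *Fev* had 0.434 and 0.122 FPKM and *Pcdhac2* was not higher. The part of these cell types in the members' levels was not tested. Markers of regions outside the hippocampus were present in both libraries, with *Foxp2* at 25.8 and 28.0 FPKM.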

How the data were processed

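Stranded libraries were prepared from RNA depleted of ribosomal RNA. According to the submitters' processing notes, reads were trimmed (Trimmomatic 0.36), aligned to GRCm38.p5 (HISAT2 2.1.0) and passed to Cuffdiff. The authors deposited the resulting FPKM for each Ensembl transcript, and neither Cuffdiff's version nor its scaling of libraries is given in the sources used here. The deposited columns of ratio, log2 ratio, p-value and q-value hold the authors' own comparison and were not used. The FPKM were read with python 3.11.15, pandas 2.3.3 and numpy 2.4.6. Correlations used scipy 1.17.1 and figures matplotlib 3.10.9. Exons and 3′UTRs came from GENCODE M21, which held 99.6% of the transcript identifiers and all 87 members. Values of 1e-05 were set to 0. Of the members' 58 RefSeq symbols (GRCm38.p6) 56 were matched. No test between genotypes was run on 2 libraries. The procedure was tested on simulated data.

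The members, the gene lists and the rules were chosen with earlier results of these data known. Named genes were the C-type genes, the highest and lowest gene of each family, the 5 highest and 5 lowest log2 ratios at a mean of at least 1 FPKM, members at the floor, and the 2 highest and 2 lowest of each list. Other genes were named after their values were seen, as examples of position, transcript forms, interactions or markers. Alternatives changed the pseudocount (0.01 or 1), the minimum level, the fold, the transcript length and the scaling between libraries.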

Additional observations from a re-analysis of the deposited data

How the results depend on the processing

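No paired analysis was possible because a single library stands for each genotype, and for the same reason no replicate could be left out. Scaling the knockout library by total FPKM or by the median ratio of protein-coding genes shifted log2 ratios by only -0.01. Across the alternatives the median log2 ratio of the members ran from -0.04 to -0.01, that of the beta cluster from -0.06 to -0.03 and that of the gamma cluster from -0.06 to -0.04. That of the alpha cluster ran from 0.03 to 0.10, the last at a mean of at least 5 FPKM. The number of members above 1.2-fold was 2 with no minimum on the mean and 0 at a mean of at least 5 FPKM, where 0 were below it. Counting only transcripts with all constant exons, or single-exon beta transcripts, an alternative chosen after seeing the data, gave 2 above and 5 below 1.2-fold, and changed the share of beta genes to 27.0% in wild type and 27.2% in the knockout and that of gamma-B genes to 7.77% and 7.62%. The direction of both shares between libraries turned under that setting, since the beta share had been 24.0% in wild type and 23.8% in the knockout and the gamma-B share 10.1% and 10.3%, and the log2 ratio of *Pcdhgc3*, 0.00, lay just below 0 under both scalings. None of the other recomputed medians and single-gene log2 ratios changed sign. A limit of 1.5-fold gave 3 increased and 6 decreased member transcripts, against 10% and 20.2% of all transcripts, and with no minimum other than a value above the floor in wild type 2 were decreased. Grouping by Ensembl gene identifier, also chosen after seeing the data, separated the rows named *Pcdha11*. Of 93 values recomputed for the main results 80 stayed within the tolerances (0.05 for a median log2 ratio, 2 percentage points for a share, 1.5-fold for a count) and 13 moved, and of 176 for single genes 167 stayed within 0.1 and 9 moved. The precision of each level is unknown without read counts.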

Other observations

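Other genes inside the protocadherin locus were also listed. Between the first alpha and the last gamma base there were 41 further transcripts of 28 genes, of which 9 genes had at least 1 FPKM in at least 1 of the libraries and 5 stood at the floor in both libraries. *Taf7*, a subunit of the general transcription factor TFIID that lies among the clusters, had 6.23 FPKM in wild type and 6.43 FPKM in the knockout. Pseudogenes in the locus reached the level of members, *Gm19035* with 5.33 and 5.92 FPKM and *Gm36858* with 3.37 and 2.74 FPKM. The minus-strand transcript gene *Gm26672* had 2.09 and 2.83 FPKM. *Pcdhgb8*, annotated as a polymorphic pseudogene and so not counted as a member, had 1.62 FPKM in wild type and 2.15 FPKM in the knockout over its transcripts. Its transcripts end in the gamma constant exons like those of the members.

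*Gm37013*, annotated as protein-coding, runs from base 36969916 to base 37833296 of chromosome 18 and so from inside the alpha cluster to the second gamma constant exon, but has only 313 bases of exon. It had 0.841 FPKM in wild type and was listed at the floor in the knockout. The similar *Gm37388* had 0.281 FPKM in wild type and was at the floor in the knockout, and *Gm42416* was at the floor in both. Antisense *Gm37753* and *Gm38225* had 0.667 and 0.560 FPKM in wild type and were at the floor in the knockout. No fold is given for them.

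Of 54 genes of any type within 1 Mb on either side of the locus, 35 had a mean of at least 1 FPKM, with a median log2 ratio of 0.01. Among all protein-coding genes at that level 6.32% were above and 7.85% below 1.2-fold. Of the 35 neighbours 1 was above 1.2-fold and 4 were below it. The gene above it was *1700086O06Rik* with 1.90 FPKM in wild type and 2.62 FPKM in the knockout. Those below it were *Vaultrc5*, a vault RNA, with 39.2 and 17.1 FPKM, *Fchsd1* with 12.1 and 8.91 FPKM, *Arap3* with 1.42 and 1.15 FPKM and *Arhgap26* with 3.45 and 2.46 FPKM. *Diaph1*, a formin that nucleates actin filaments, had 6.92 and 7.31 FPKM, and *Hdac3*, a histone deacetylase, 35.5 and 37.3 FPKM.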
